A study of Homo sapiens with 15 samples.

Results

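The genes described here were 10 members of the NOTCH pathway in PATU-8988T cells, a human line long grown from a pancreatic cancer, out of 58676 genes in the count table. They were the receptors NOTCH1, NOTCH2 and NOTCH3, the ligands JAG1, JAG2 and DLL1, and the genes HES1, HES4, HEY1 and NRARP, which NOTCH signalling is known to switch on. All 10 were found by symbol. The set was chosen by the measured counts of HES1, which was among the largest differences between cells held for 24 h and for 4 h in YKL-5-124. That contrast is therefore given for all 10 genes as a description with no test, and HES1 is not tested in any comparison that uses YKL-5-124 libraries.

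Total RNA was sequenced in 15 libraries, 3 in each of 5 groups: cells in 100 nM THZ1 for 24 h, in 100 nM THZ1 for 4 h, in 100 nM YKL-5-124 for 24 h, in 100 nM YKL-5-124 for 4 h, and control cells in 0.1% DMSO. Both compounds are described by the series as inhibitors of CDK7, a kinase of the transcription machinery, and THZ1 is also known to act on CDK12 and CDK13. No time is labelled for DMSO. Its 3 libraries were the control at 4 h and at 24 h alike, so all comparisons with DMSO share them, and time in culture cannot be told apart from time of treatment. The cells are 1 line. The labels do not tell whether numbered replicates were separate cultures, and the tests therefore rest on a spread between libraries that may be technical.

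NOTCH receptors are cleaved when a ligand of the Jagged or Delta-like kind on a neighbouring cell binds them. The freed intracellular part enters the nucleus, joins the DNA-binding protein RBPJ and coactivators of the Mastermind family, and raises transcription of targets such as the HES and HEY repressors and NRARP, a feedback inhibitor that destabilises the intracellular part. HES1 also represses its own gene, and its mRNA and protein are short-lived. In the pancreas the pathway is known for holding progenitors back from endocrine and acinar fates, and HES1 is a usual readout of it in pancreatic cancer cells.

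Of the 10 genes, 8 were matched by symbol in the RefSeq promoter table (GRCh38.p14). The 250 bases before the start of 3 target genes are printed, because the results turn mostly on these targets: HES1 at chr3:194135898-194136147 on the plus strand, HES4 at chr1:1000098-1000347 on the minus strand and NRARP at chr9:137302272-137302521 on the minus strand. Each reads 5′ to 3′ along its gene, and capitals mark TGGGAA, the core letters of the sequence that RBPJ is known to bind.
HES1: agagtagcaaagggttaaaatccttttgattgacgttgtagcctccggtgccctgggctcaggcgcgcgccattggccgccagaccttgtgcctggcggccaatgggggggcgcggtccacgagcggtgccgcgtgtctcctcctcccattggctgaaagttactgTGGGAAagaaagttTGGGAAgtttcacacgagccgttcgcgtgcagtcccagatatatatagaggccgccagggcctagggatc
HES4: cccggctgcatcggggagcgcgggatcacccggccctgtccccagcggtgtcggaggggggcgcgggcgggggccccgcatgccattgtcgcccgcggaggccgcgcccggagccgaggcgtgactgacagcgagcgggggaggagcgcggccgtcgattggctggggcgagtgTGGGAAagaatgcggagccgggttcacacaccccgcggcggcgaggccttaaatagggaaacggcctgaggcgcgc
NRARP: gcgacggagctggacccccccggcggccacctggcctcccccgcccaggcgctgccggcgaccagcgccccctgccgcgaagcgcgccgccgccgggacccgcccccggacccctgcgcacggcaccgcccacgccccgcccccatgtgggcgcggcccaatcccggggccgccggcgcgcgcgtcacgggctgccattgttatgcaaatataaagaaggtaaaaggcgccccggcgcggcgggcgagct
TGGGAA was searched on both strands and its matches did not overlap those of the second motif counted. HES1 held it at 2 places, beginning 84 and 70 bases before the start of the gene, HES4 held it once, beginning 76 bases before, and NRARP did not hold it in this window. Windows and distances follow the RefSeq starts. In the count table HES1 starts at base 194136145 and HES4 at base 1000172, inside the printed windows. By the start in the count table, the match in HES4 spans the start of the gene. Of 35114 windows of the same length, 20.8% held TGGGAA at least once and 2.9% at least 2 times. CACNAG, the letters of the N-box that HES repressors are known to bind, was also searched on both strands; it lay at 3 places in the HES1 window and in neither of the other two printed windows. Of all windows, 32% held it at least once and 6.32% at least 2 times. Among the other 5 windows, those of the 3 receptors, JAG1 and JAG2, none held TGGGAA, and NOTCH3 held CACNAG once. A match of letters is a description of the sequence and not evidence of binding.

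Depth was 15567057 to 22869590 counts per library, and 14461 genes had enough counts to be tested. Levels are CPM, counts scaled to a common library size with edgeR's TMM factors. After 24 h of THZ1 ribosomal protein mRNAs took 20.8 to 23.1% of the counts, against 9.06 to 11.6% in DMSO. Transcripts of the 37 genes of the mitochondrial genome took 3.46 to 4.44%, against 0.862 to 1.25% in DMSO. The part of either share in the results was not tested, and the size and direction of changes after 24 h of THZ1 depended on the scaling of the libraries, as given below. In these bulk samples, fewer cells of a kind and less RNA per cell cannot be told apart. Libraries also differed within groups in how their counts leaned towards long or short transcripts. This lean was measured as the slope of log2 CPM on log2 transcript length. The library farthest in slope from the others of its group was replicate 1 in THZ1 24 h, THZ1 4 h and YKL-5-124 4 h. In YKL-5-124 24 h it was replicate 3, and in DMSO replicate 2. Each group has such a library by definition, and in YKL-5-124 4 h the slopes were spread from -0.05 through 0.05 to 0.13. The epithelial keratins KRT8 and KRT18 and the mesenchymal genes VIM, CDH2 and ZEB1 were expressed in all groups. The summed level of 10 epithelial and ductal markers was 2728 to 3558 CPM in THZ1 24 h, against 1360 to 1643 CPM in DMSO. That of 7 mesenchymal markers was 435 to 468 CPM in THZ1 24 h, against 211 to 234 CPM in DMSO. Summed over 5 fibroblast markers the level was 2.54 to 8.68 CPM in THZ1 24 h, against 1.55 to 2.44 CPM in DMSO, and DCN was at 0 counts in THZ1 24 h. The genes of a list did not all move with its sum. KRT8 made up most of the epithelial sum, with a mean of 2668 CPM in THZ1 24 h against 1062 CPM in DMSO. EPCAM was also higher (62.4 against 13.1 CPM), while KRT18 (289 against 437 CPM) and SOX9 (1.14 against 4.67 CPM) were lower. Of the fibroblast markers COL1A1 was higher (3.97 against 0.343 CPM) and COL3A1 lower (0.974 against 1.62 CPM). The part of these differences in the results was not tested. KRT19, a ductal keratin, had 3 counts in the 15 libraries together. No acinar or islet marker passed 1 CPM in any library. Summed over 5 immune markers, the level was 0.725 to 2.14 CPM in THZ1 24 h, 0 to 0.0530 CPM in THZ1 4 h, 0 to 3.85 CPM in YKL-5-124 24 h, 0.155 to 0.516 CPM in YKL-5-124 4 h and 0 to 0.0421 CPM in DMSO, and 4 of the 5 stayed under 1 CPM in all libraries. The exception was LYZ, and CD3E and CD68 had 0 counts.

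All 10 genes passed the filter on low counts. NOTCH3, with 111 counts in all libraries together, and HEY1, with 203, were the scarcest. NOTCH2, with 24505 counts, was the most abundant. Per kilobase of transcript, which allows genes to be compared, the level in DMSO was highest for HES4 with a mean of 5.41 CPM per kb and NOTCH2 with 4.50, whose ranges overlapped. HES1 with 1.98 and NRARP with 1.80 CPM per kb followed and also overlapped. DLL1, NOTCH1 and JAG2, at 0.605, 0.537 and 0.529 CPM per kb, were not separable. HEY1, JAG1 and NOTCH3 had lower means of 0.264, 0.134 and 0.0263, but NOTCH1, which ranged from 0.189 to 1.04 CPM per kb, overlapped HEY1 and JAG1 as well as HES1. After 24 h of THZ1 the highest means were those of HES1 with 5.87, HES4 with 4.91 and NRARP with 4.61 CPM per kb, whose ranges overlapped. NOTCH2 followed with 2.71.

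**Figure D1:**
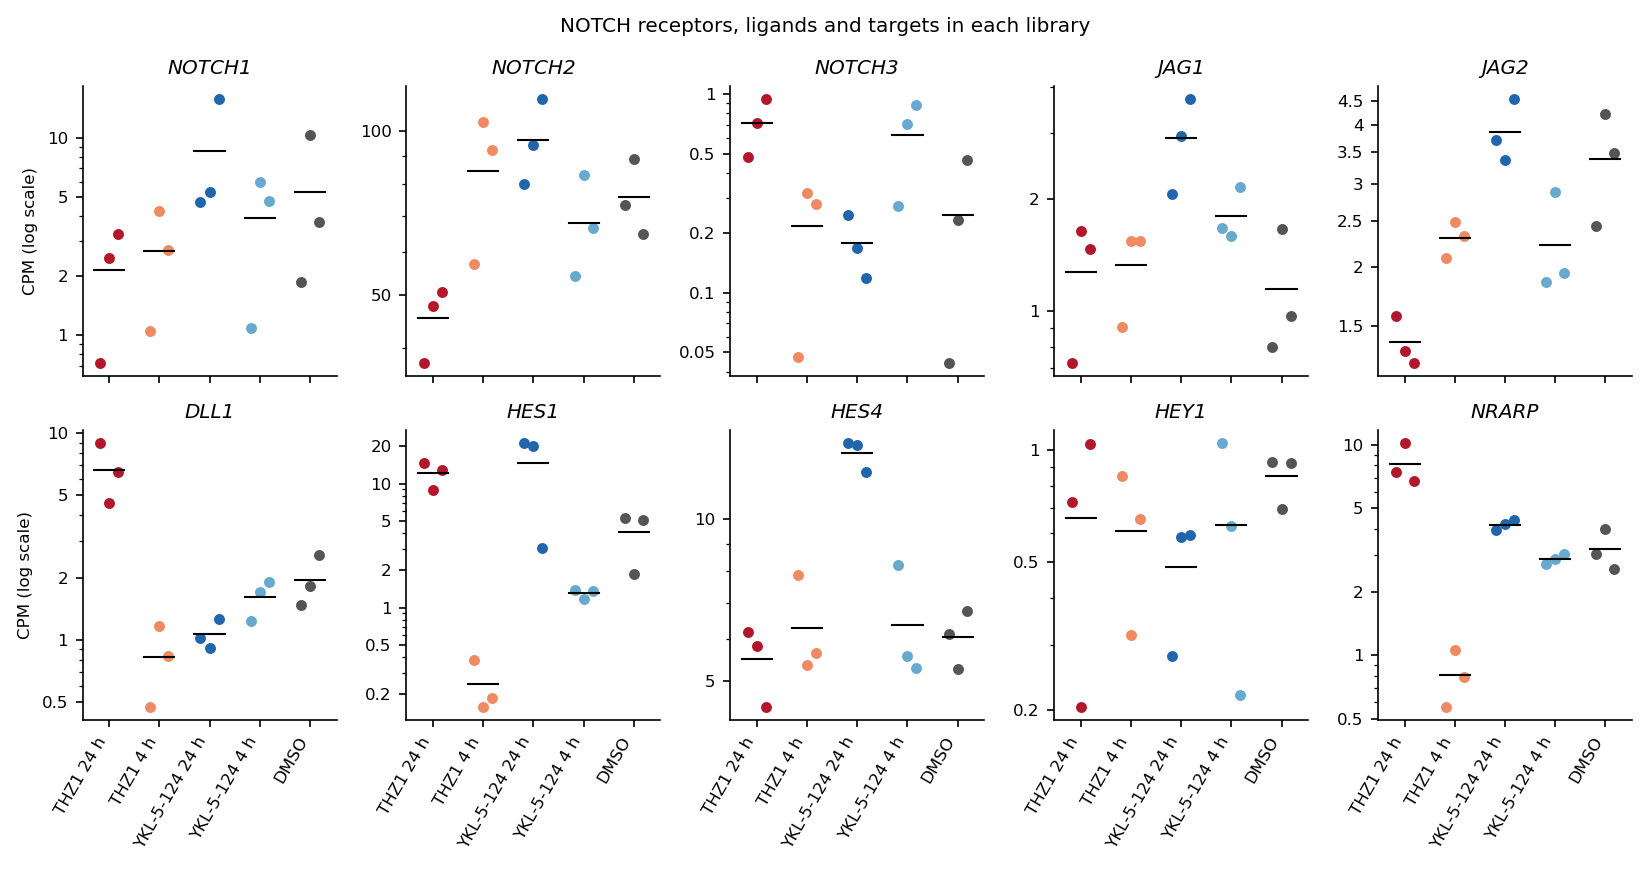
Level of each of the 10 genes in CPM on a log scale in the 3 libraries of each group; each point is 1 library and each line the group mean. HES1, DLL1 and NRARP have their lowest mean in THZ1 4 h, and in THZ1 24 h all 3 libraries of each are above every DMSO library.

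With THZ1 the 2 times gave opposite results for 3 of the genes. At 4 h HES1, NRARP and DLL1 were lower than in DMSO and no member was higher. At 24 h the same 3 were higher than in DMSO, and NOTCH2 and JAG2 were lower. In numbers, 0 of 10 members rose and 3 fell at 4 h, where 16.9% of all genes tested rose and 25.1% fell (42% in either direction), and 3 of 10 rose and 2 fell at 24 h, where 32.3% of all genes rose and 44% fell (76.2% in either direction). These counts are close to or below the shares of all genes, so they do not set the members apart. The median log2 fold change of the 10 was 0.01 at 24 h, against -0.37 over all genes, and -0.51 at 4 h, against 0 over all genes. With YKL-5-124, where HES1 was left out of the count, JAG1 and HES4 rose and 0 of 9 fell at 24 h, against 8.92% of all genes higher and 12.7% lower (21.6% in either direction). At 4 h 0 of 9 members passed in either direction, against 0.0553% of all genes higher and 0.463% lower (0.519% in either direction); JAG2 alone had an unadjusted p under 0.05 (0.0241), and DESeq2 also called 0 of 9. Each test was the quasi-likelihood test of edgeR, with p-values adjusted by Benjamini and Hochberg's method across the whole table of 14461 genes and called below 0.05. With 3 libraries a side, an exact permutation test of a single gene cannot go below 0.1.

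**Figure D2:**
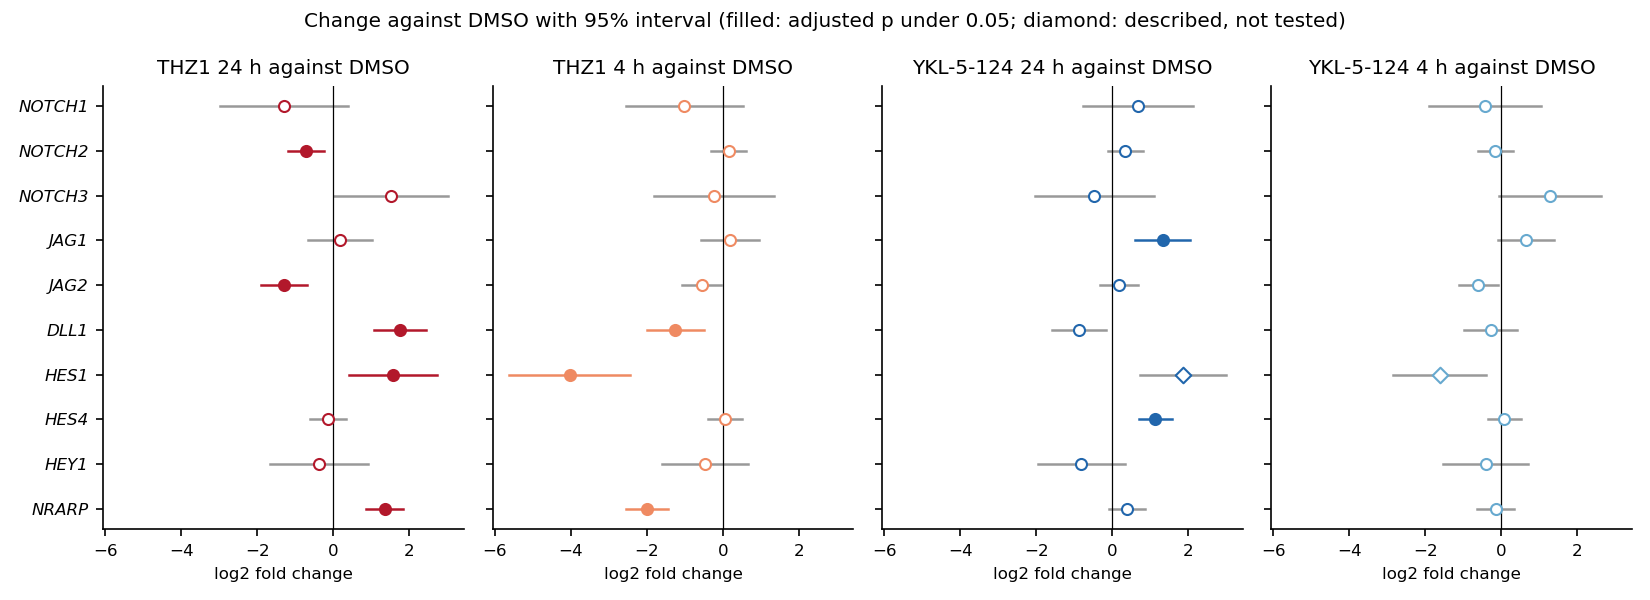
Log2 fold change of each gene against DMSO (horizontal axis) with its 95% interval, for THZ1 24 h, THZ1 4 h, YKL-5-124 24 h and YKL-5-124 4 h. Filled points passed an adjusted p of 0.05 and diamonds mark HES1 in YKL-5-124, which was not tested; for HES1 the change is -4.03 in THZ1 4 h and 1.57 in THZ1 24 h.

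HES1, the transcriptional repressor whose promoter opens the set of sequences above, had the widest range of the 10. After 24 h of THZ1 its level was 14.6, 8.88 and 12.8 CPM. After 4 h of THZ1 it was 0.380, 0.159 and 0.186 CPM, which rests on 15 counts in the 3 libraries together. In DMSO it was 5.33, 1.86 and 5.06 CPM. Thus the THZ1 24 h libraries were all above, and the THZ1 4 h libraries all below, the DMSO libraries. At 4 h HES1 fell by 4.03 on the log2 scale (SE 0.75, adjusted p = 5.27e-04), and the ratio of its counts to DMSO was 0.0611 with an exact 95% interval of 0.0338 to 0.103, which covers counting error only. At 24 h it rose by 1.57 (SE 0.54, adjusted p = 0.0152). This rise had an adjusted p of 0.0608 without DMSO replicate 2, the library with the lowest HES1 in its group. It was -0.53 when the libraries were scaled on ribosomal protein mRNAs, and 0.46 with an adjusted p of 0.417 when they were scaled on their totals. With the length slope of the libraries as a covariate it became a fall of -1.38 (adjusted p = 0.0247). The difference between the times, 24 h against 4 h of THZ1, was 5.60 (SE 0.74, adjusted p = 7.26e-06) and ranged from 2.95 to 6.10 over the 17 other settings, in all of which it passed.

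In YKL-5-124 HES1 was 21.2, 20.2 and 3.04 CPM after 24 h and 1.39, 1.18 and 1.36 CPM after 4 h. The 24 h libraries all lay above the 4 h libraries, and replicate 3, the library of this group that stood apart in length slope, was far below the other two. The log2 fold change of 24 h against 4 h was 3.49, 14th from the top of 14461 genes, and this is the value that chose the set. Without replicate 3 of YKL-5-124 24 h it was 3.98. Against DMSO the log2 fold change was 1.86 at 24 h, where the libraries overlapped because replicate 3 was lower than 2 of the DMSO libraries, and -1.63 at 4 h, where all 3 libraries were below all 3 of DMSO. No test is given for HES1 in these libraries. In order of mean level HES1 ran from YKL-5-124 24 h and THZ1 24 h, whose ranges overlapped, through DMSO and YKL-5-124 4 h to THZ1 4 h, each of which was apart from its neighbour.

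NRARP, the feedback inhibitor, was above DMSO after 24 h of THZ1 and below it after 4 h, as HES1 was, and did not pass in YKL-5-124. Its level after 24 h of THZ1 was 7.49, 10.2 and 6.78 CPM and after 4 h of THZ1 0.569, 1.06 and 0.791 CPM. In YKL-5-124 it was 3.95, 4.21 and 4.38 CPM after 24 h and 2.71, 2.88 and 3.04 CPM after 4 h, and in DMSO 3.02, 3.99 and 2.57 CPM. The THZ1 groups lay apart from all others on either side, while the YKL-5-124 groups overlapped DMSO. NRARP rose by 1.35 after 24 h of THZ1 (SE 0.23, adjusted p = 6.74e-05) and fell by 1.99 after 4 h (SE 0.26, adjusted p = 2.11e-05). The rise became a fall of -0.87 (adjusted p = 0.0299) on ribosomal protein mRNAs and was 0.21 (adjusted p = 0.43) on library totals, and the fall at 4 h passed in all 17 other settings. Against DMSO the log2 fold change in YKL-5-124 was 0.39 at 24 h, with a 95% interval of -0.09 to 0.87, and -0.15 at 4 h, with an interval of -0.64 to 0.33.

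HES4, another repressor of the HES family, passed in YKL-5-124 24 h among the 4 comparisons with DMSO under TMM scaling. It was 13.8, 13.7 and 12.2 CPM there, against 6.13, 5.26 and 6.74 CPM in DMSO, with no overlap. The log2 fold change of 1.13 (SE 0.20, adjusted p = 0.00126) passed in all 17 other settings. In THZ1 24 h HES4 was 6.16, 5.82 and 4.49 CPM, in THZ1 4 h 7.88, 5.36 and 5.63 CPM and in YKL-5-124 4 h 8.21, 5.57 and 5.28 CPM, all overlapping DMSO. On library totals HES4 in THZ1 24 h was -1.27 and passed (adjusted p = 3.03e-05). HEY1, a repressor of the related HEY family, did not pass in any comparison. Its level was 0.725, 0.204 and 1.04 CPM in THZ1 24 h, 0.854, 0.318 and 0.652 CPM in THZ1 4 h, 0.280, 0.583 and 0.592 CPM in YKL-5-124 24 h, 1.05, 0.627 and 0.220 CPM in YKL-5-124 4 h and 0.932, 0.696 and 0.927 CPM in DMSO. All 3 libraries of YKL-5-124 24 h were below DMSO, with a log2 fold change of -0.81 that did not pass (adjusted p = 0.312). Its 95% interval against DMSO in THZ1 24 h ran from -1.66 to 0.90, which leaves both a fall and a rise compatible with its few counts.

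DLL1, a Delta-like ligand, was also above DMSO after 24 h of THZ1 and below it after 4 h. It was 8.94, 4.59 and 6.47 CPM after 24 h of THZ1, 0.475, 1.17 and 0.838 CPM after 4 h, and 1.47, 1.82 and 2.57 CPM in DMSO. The 3 groups did not overlap. DLL1 rose by 1.76 at 24 h (SE 0.32, adjusted p = 1.33e-04) and fell by 1.24 at 4 h (SE 0.35, adjusted p = 0.0105). The rise was -0.41 on ribosomal protein mRNAs and 0.64 (adjusted p = 0.0897) on library totals. The fall had adjusted p-values of 0.0519 without THZ1 4 h replicate 1 and 0.0549 without DMSO replicate 3. In YKL-5-124 DLL1 was 1.01, 0.916 and 1.26 CPM after 24 h and 1.24, 1.70 and 1.89 CPM after 4 h. The 24 h libraries were all below DMSO, with a log2 fold change of -0.87 that did not pass (adjusted p = 0.0772). DLL1 overlaps FAM120B on the other strand, which had 12846 counts in all, and the strand setting of the counting is unknown here, so reads of these genes may be mixed.

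Of the Jagged ligands, JAG1 passed against DMSO in YKL-5-124 24 h and JAG2 in THZ1 24 h; whether their changes differ was not tested. JAG1 was 2.06, 2.96 and 3.71 CPM in YKL-5-124 24 h, against 0.799, 1.66 and 0.969 CPM in DMSO, with no overlap. It rose by 1.33 (SE 0.34, adjusted p = 0.0116), and the adjusted p was 0.0539 without replicate 3 of YKL-5-124 24 h, 0.0586 without DMSO replicate 1 and 0.0567 without DMSO replicate 3. JAG1 was 0.725, 1.63 and 1.46 CPM in THZ1 24 h, 0.902, 1.54 and 1.54 CPM in THZ1 4 h and 1.66, 1.59 and 2.16 CPM in YKL-5-124 4 h, none of which passed against DMSO. JAG2 was 1.57, 1.33 and 1.25 CPM in THZ1 24 h, against 2.44, 4.22 and 3.50 CPM in DMSO. All 3 THZ1 24 h libraries were lower, and JAG2 fell by 1.30 (SE 0.28, adjusted p = 6.10e-04), a call that did not hold with the length slope as a covariate (-0.60, adjusted p = 0.176). JAG2 was 2.09, 2.49 and 2.33 CPM in THZ1 4 h, 3.71, 3.37 and 4.54 CPM in YKL-5-124 24 h and 1.86, 2.88 and 1.94 CPM in YKL-5-124 4 h, with no call against DMSO in any of the 3.

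Among the receptors NOTCH2 made up most of the mRNA, and it passed against DMSO in THZ1 24 h. It was 37.7, 47.9 and 50.8 CPM there, against 73.1, 88.8 and 64.9 CPM in DMSO. The groups did not overlap, and the fall of 0.73 (SE 0.22) passed (adjusted p = 0.00724). The call did not hold with RLE factors (-0.41, adjusted p = 0.0976) or upper-quartile factors (-0.34, adjusted p = 0.182), nor with DESeq2 (-0.41, adjusted p = 0.0985) or without THZ1 24 h replicate 1 (-0.59, adjusted p = 0.0572). With the length slope as a covariate the value turned to 0.27 (adjusted p = 0.109). NOTCH2 was 57.1, 104 and 92.4 CPM in THZ1 4 h, 79.8, 94.4 and 114 CPM in YKL-5-124 24 h and 54.2, 83.0 and 66.4 CPM in YKL-5-124 4 h, all overlapping DMSO. Its near-identical partial copy NOTCH2NL, with a mean of 0.810 CPM over all libraries, could share reads with it, so small differences in NOTCH2 are uncertain.

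NOTCH1, known for its part in progenitor and T cells, varied widely within groups. It was 0.725, 2.45 and 3.23 CPM in THZ1 24 h, 1.04, 4.24 and 2.70 CPM in THZ1 4 h, 4.72, 5.33 and 15.7 CPM in YKL-5-124 24 h, 1.08, 5.98 and 4.76 CPM in YKL-5-124 4 h and 1.86, 10.3 and 3.75 CPM in DMSO. With group as the only factor, no comparison with DMSO passed, and the 95% interval for THZ1 24 h ran from -2.98 to 0.39. NOTCH3 was 0.483, 0.715 and 0.939 CPM in THZ1 24 h, 0.0475, 0.318 and 0.279 CPM in THZ1 4 h, 0.245, 0.167 and 0.118 CPM in YKL-5-124 24 h, 0.271, 0.701 and 0.881 CPM in YKL-5-124 4 h and 0.0444, 0.232 and 0.463 CPM in DMSO. In the same fit it did not pass against DMSO in any group (in THZ1 24 h the log2 fold change was 1.51, adjusted p = 0.0621), and 4 libraries exceeded the cutoff of 0.509 CPM used by the filter.

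Between the 2 times of THZ1, 4 of 10 members were higher and 2 lower at 24 h, against 31.4% and 35.7% of all genes tested (67.1% in either direction). Besides HES1, NRARP rose by 3.34 (SE 0.26, adjusted p = 2.51e-08) and DLL1 by 3.01 (SE 0.35, adjusted p = 2.01e-06), and both passed in all 17 other settings. NOTCH2 fell by 0.89 (adjusted p = 0.00225), was -0.51 (adjusted p = 0.0567) with upper-quartile factors and 0.10 with the length slope as a covariate. NOTCH3 (1.73, adjusted p = 0.0485) and JAG2 (-0.74, adjusted p = 0.0339) were close to the threshold: NOTCH3 did not pass in 8 of 16 other settings and JAG2 not in 12 of 17. In YKL-5-124, 24 h against 4 h, the other log2 fold changes are descriptions from the contrast that chose HES1: 1.12 for NOTCH1, 0.50 for NOTCH2, -1.75 for NOTCH3, 0.69 for JAG1, 0.80 for JAG2, -0.59 for DLL1, 1.06 for HES4, -0.40 for HEY1 and 0.54 for NRARP. Of all genes 9.22% were higher and 11.9% lower in that contrast (21.1% in either direction), from which nothing is read here.

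The compounds were compared directly at each time, over the 9 members other than HES1. At 24 h 3 members were higher in THZ1 and 5 lower, against 31.8% and 44.1% of all genes tested (75.9% in either direction). DLL1 was higher in THZ1 by 2.63 (SE 0.34, adjusted p = 3.52e-06), NRARP by 0.97 (adjusted p = 0.00118) and NOTCH3 by 1.97 (adjusted p = 0.0221), and on ribosomal protein mRNAs these became -0.16, -1.82 and -0.69. NRARP was also -0.32 on library totals. HES4 was lower in THZ1 than in YKL-5-124 by -1.27 (SE 0.22, adjusted p = 6.73e-05), in all 17 other settings as well. JAG2 (-1.49, adjusted p = 1.71e-04), NOTCH2 (-1.08, adjusted p = 4.04e-04), JAG1 (-1.17, adjusted p = 0.0103) and NOTCH1 (-1.98, adjusted p = 0.0320) were also lower. The call for NOTCH1 did not hold without replicate 3 of YKL-5-124 24 h (-1.23, adjusted p = 0.171), nor without replicate 1 (-1.58, adjusted p = 0.13) or 2 (-2.07, adjusted p = 0.0777) of THZ1 24 h. It did not hold either with RLE factors (-1.66, adjusted p = 0.0639), upper-quartile factors (-1.69, adjusted p = 0.0683) or DESeq2 (-1.68, adjusted p = 0.0608). JAG1 missed the threshold with RLE factors (-0.85, adjusted p = 0.0501) and upper-quartile factors (-0.87, adjusted p = 0.0517), and NOTCH3 on library totals (0.72, adjusted p = 0.367). With the length slope as a covariate NOTCH1 was 1.87 and JAG1 0.09, and NOTCH2 and JAG2 did not pass. JAG1 did not pass without THZ1 24 h replicate 1 (-0.89, adjusted p = 0.065). NOTCH3 did not pass without THZ1 24 h replicate 3 (1.75, adjusted p = 0.0861), YKL-5-124 24 h replicate 2 (1.92, adjusted p = 0.0533) or YKL-5-124 24 h replicate 3 (1.74, adjusted p = 0.0661).

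At 4 h 0 of 9 members were higher in THZ1 than in YKL-5-124 and 2 were lower, against 11.4% and 21.9% of all genes tested (33.3% in either direction). NRARP was lower by -1.83 (SE 0.26, adjusted p = 6.21e-05), in all 17 other settings as well. DLL1 was lower by -0.96 with an adjusted p of 0.0490, at the threshold, and missed it in 7 of 17 other settings. For HES1 the log2 fold change of THZ1 against YKL-5-124 was -2.40 at 4 h, where all 3 THZ1 libraries were lower, and -0.29 at 24 h, where the libraries overlapped, both given as descriptions. For HES4 at 4 h the difference of -0.01 had a 95% interval of -0.46 to 0.43, which bounds a difference without showing that the compounds act alike.

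Shares within a family do not depend on how libraries are scaled against each other. Of the summed JAG1, JAG2 and DLL1 levels per kilobase, DLL1 made up 78.1 to 89.3% in THZ1 24 h and 25.4 to 38.8% in THZ1 4 h, against 39.8 to 54.7% in DMSO. In YKL-5-124 it made up 24.5 to 27.7% at 24 h and 44.2 to 51.4% at 4 h. So the DLL1 share was above DMSO in THZ1 24 h and below it in THZ1 4 h and YKL-5-124 24 h, with no overlap. DLL1 has a length of 3226 bases, against 6397 for JAG2 and 8534 for JAG1. The length slopes of the libraries were -0.43 to -0.29 in THZ1 24 h and -0.03 to 0.19 in DMSO. The part of this lean, or of reads of FAM120B, in the DLL1 share was not tested. Of HES1, HES4 and HEY1, HES1 made up 45.0 to 58.9% in THZ1 24 h and 1.55 to 2.46% in THZ1 4 h, against 15.5 to 30.9% in DMSO, and the 3 groups did not overlap. In YKL-5-124 the HES1 share was 11.7 to 45.2% at 24 h and 8.10 to 12.1% at 4 h. NOTCH2 made up 80.9 to 96.8% of the 3 receptors in all 15 libraries.

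**Figure D3:**
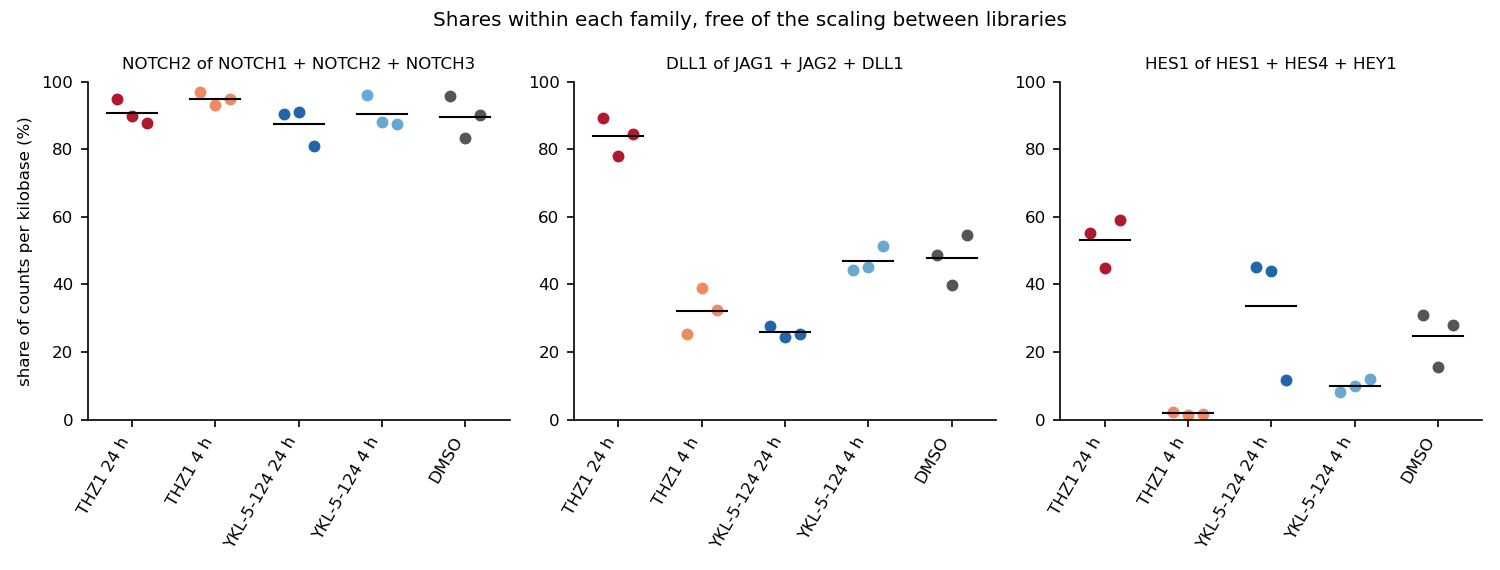
Share of NOTCH2 among the 3 receptors, of DLL1 among the 3 ligands and of HES1 among HES1, HES4 and HEY1, in percent of counts per kilobase, in each library (points) with group means (lines). DLL1 is 78.1 to 89.3% of the ligands in THZ1 24 h and HES1 is 1.55 to 2.46% of its family in THZ1 4 h.

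The direction of the rises after 24 h of THZ1 depended on the scaling. In THZ1 24 h against DMSO the median over all genes moved, relative to TMM and on the log2 scale, by 0.32 with RLE factors, 0.39 with upper-quartile factors, -1.13 with library totals and -2.18 with ribosomal protein mRNAs. Across all genes tested, the calls were 4668 higher and 6356 lower with TMM, 5457 and 5471 with RLE factors, 2266 and 9384 with library totals and 576 and 11713 with ribosomal protein mRNAs. HES1, DLL1 and NRARP were higher with TMM, RLE, upper-quartile and library-total scaling, though short of the threshold with the last, and lower with ribosomal protein mRNAs. Under each of the 5 scalings they stayed above the median of all genes. At 4 h of THZ1 the same 3 genes fell under every scaling.

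**Figure D4:**
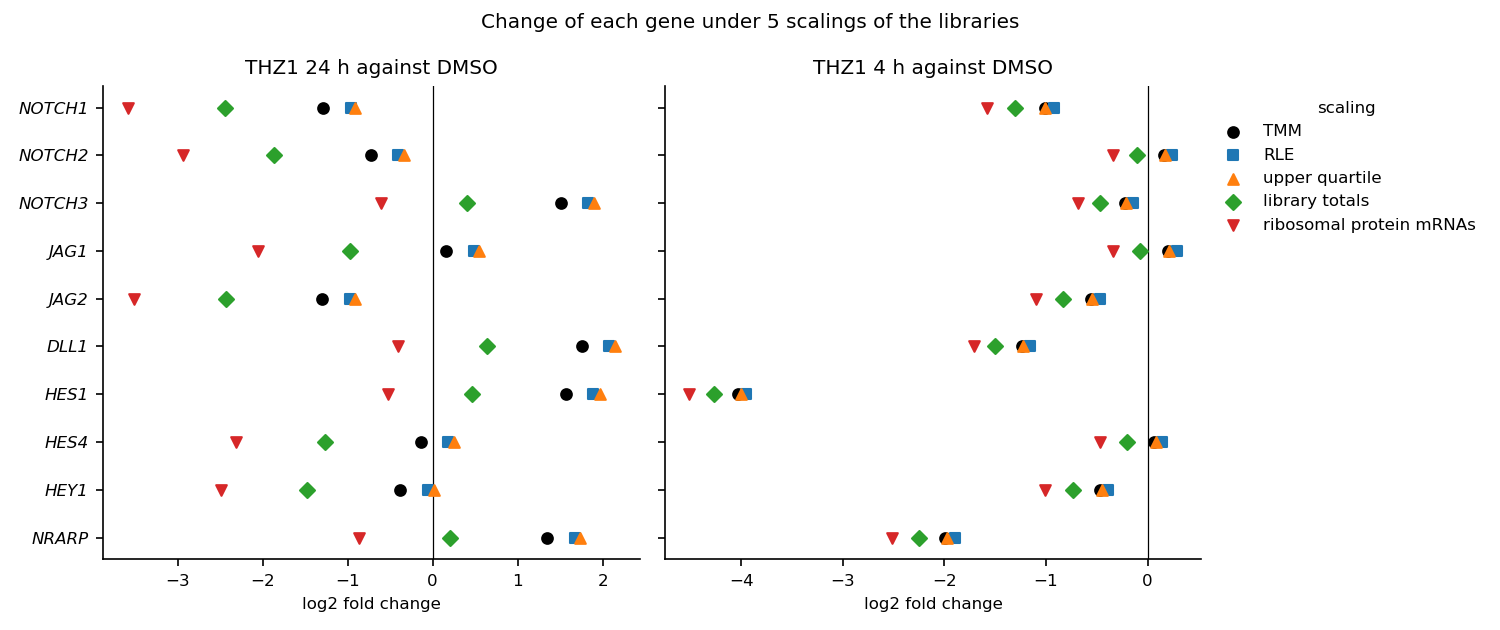
Log2 fold change against DMSO (horizontal axis) of each gene in THZ1 24 h and in THZ1 4 h under 5 scalings of the libraries. In THZ1 24 h HES1 ranges from -0.53 to 1.97 and in THZ1 4 h from -4.51 to -3.95.

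Several members, among them NOTCH1, NOTCH2, HES1 and HES4, also moved with the length slope of the libraries inside groups. The remaining members did not keep such a pattern in all groups. In replicate 3 of YKL-5-124 24 h, with a slope of 0.21 against 0.00 and 0.01 in the other two, NOTCH1 was above both and HES1 below both. In replicate 2 of DMSO, with a slope of 0.19 against -0.03 and -0.02, NOTCH1 was again above both and HES1 below both. NOTCH2 lay as NOTCH1 did, and HES4 as HES1 did, in these libraries. In replicate 1 of THZ1 24 h, THZ1 4 h and YKL-5-124 4 h, lowest in slope, these places were reversed. NRARP, of 1770 bases, lay as NOTCH1 did except in replicate 1 of THZ1 24 h, where it was between the others. The part of the slope in the results was not tested. The slopes ran from -0.43 to -0.29 in THZ1 24 h and from -0.03 to 0.19 in DMSO without overlap, so slope and treatment cannot be told apart there. With the slope as a covariate NOTCH1 in THZ1 24 h against DMSO was 2.38 (adjusted p = 1.05e-04), beside the fall of HES1 given above. With the slope centred within each group, an alternative added after the values were seen, HES1 was 1.73 (adjusted p = 5.35e-06).

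**Figure D5:**
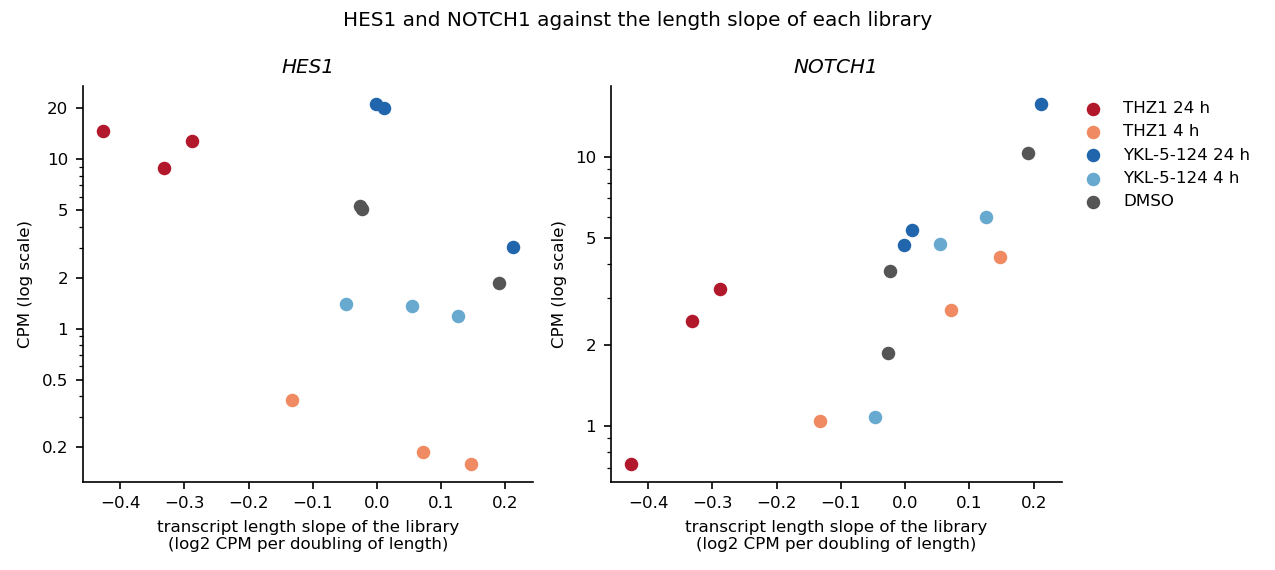
Level of HES1 and NOTCH1 in CPM on a log scale (vertical axis) against the transcript length slope of each of the 15 libraries (horizontal axis, log2 CPM per doubling of length), coloured by group. In YKL-5-124 24 h and in DMSO the library with the highest slope has the lowest HES1 and the highest NOTCH1 of its group.

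Other genes of the pathway were taken from 7 lists of 70 genes, of which 61 were tested. The lists were assembled with earlier results of these data known. In THZ1 24 h 16 rose and 28 fell, where 32.3% of all genes tested rose and 44% fell, and the median log2 fold change was -0.49 over the 61, against -0.37 over all genes. In THZ1 4 h 10 rose and 17 fell, against 16.9% and 25.1% of all genes (median -0.08 against 0 over all genes). In YKL-5-124 24 h 10 rose and 6 fell, against 8.92% and 12.7% of all genes (median 0.04 against -0.04). In YKL-5-124 4 h 0 rose and 2 fell, against 0.0553% and 0.463% of all genes (median 0.01 against 0.00). Between compounds 13 were higher in THZ1 and 32 lower at 24 h, against 31.8% and 44.1% of all genes (median -0.65 against -0.39). At 4 h 9 were higher and 13 lower, against 11.4% and 21.9% of all genes (median -0.03 against 0.01).

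DLL4, another Delta-like ligand, rose after 24 h of THZ1 and fell after 4 h under TMM scaling. It averaged 2.29 CPM in THZ1 24 h, against 0.813 CPM in DMSO, and rose (adjusted p = 0.00774). In THZ1 4 h it averaged 0.242 CPM and fell by 1.71 (adjusted p = 0.0231). In YKL-5-124 24 h DLL4 averaged 6.19 CPM and rose by 2.93 (SE 0.42, adjusted p = 2.23e-04), where DLL1 did not pass. Of the 5 other HES and HEY family genes tested, 3 rose in YKL-5-124 24 h, where 8.92% of all genes rose (median 1.47 over the 5, against -0.04 over all genes), among them HES6 (1.76, adjusted p = 2.83e-06) and HES7 (1.47, adjusted p = 6.37e-04). BHLHE40, a repressor distantly related to that family, averaged 412 CPM in THZ1 24 h and 3.71 CPM in THZ1 4 h, against 18.5 CPM in DMSO. It rose by 4.48 (adjusted p = 2.81e-13) at 24 h and fell by 2.32 (adjusted p = 3.13e-10) at 4 h, and in YKL-5-124 4 h it fell by 0.99 (adjusted p = 2.03e-04).

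The counts of each list in THZ1 24 h stand beside 32.3% of all genes tested higher and 44% lower, with a median log2 fold change of -0.37 over all genes. Among the 9 genes for receptor cleavage, 3 rose and 4 fell, with a median of 0.17. NCSTN, a gamma-secretase subunit, rose by 2.32 (adjusted p = 1.51e-10) and ADAM17, a protease that cuts the receptor outside the membrane, by 1.42 (adjusted p = 1.33e-07), while APH1B, another subunit of gamma-secretase, averaged 2.35 CPM, against 5.43 CPM in DMSO, and fell (adjusted p = 3.14e-04). In YKL-5-124 24 h FURIN, a protease that processes the receptor precursor, rose by 0.88 (adjusted p = 0.0454) and NCSTN fell by 0.56 (adjusted p = 0.00343). Of the 9 genes of the nuclear complex, 2 rose and 5 fell in THZ1 24 h, with a median of -1.27: the coactivator MAML2 fell by 3.05 (adjusted p = 5.27e-06) and the acetyltransferase gene KAT2B rose by 2.31 (adjusted p = 8.09e-11). MAML2 also fell in THZ1 4 h, by 2.45 (adjusted p = 2.96e-05). Of the 14 corepressor genes 2 rose and 9 fell in THZ1 24 h, with a median of -1.08, with HDAC1 up by 2.70 (adjusted p = 3.50e-12) and TLE4, a partner of HES repressors, down to 4.89 CPM, against 58.7 CPM in DMSO (-3.58, adjusted p = 1.15e-09). Of 16 genes for ubiquitination and endocytosis 4 rose and 9 fell, with a median of -0.55; DTX2, a Deltex ubiquitin ligase, averaged 0.0403 CPM in THZ1 24 h and 0.586 CPM in THZ1 4 h, against 4.45 CPM in DMSO. Of the 5 genes for receptor glycosylation 2 rose and 0 fell in THZ1 24 h, with a median of 0.56: POFUT1 by 1.17 (adjusted p = 2.79e-07) and EOGT by 0.56 (adjusted p = 3.96e-04), both of which add sugars to the receptor. Both fell in YKL-5-124 24 h, POFUT1 by 0.42 (adjusted p = 0.0206) and EOGT by 0.42 (adjusted p = 0.0163). On ribosomal protein mRNAs the falls of NCSTN, POFUT1 and EOGT in YKL-5-124 24 h changed sign. Their log2 fold changes there were 0.05, 0.18 and 0.19, and none passed (adjusted p = 0.869, 0.598 and 0.492). On library totals POFUT1 (-0.27, adjusted p = 0.189) and EOGT (-0.26, adjusted p = 0.12) did not pass, while NCSTN did (-0.40, adjusted p = 0.0358).

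The pathway counts followed the scaling as well. In THZ1 24 h against DMSO 19 rose and 23 fell with RLE factors, 6 and 42 with library totals, and 2 and 49 with ribosomal protein mRNAs. BHLHE40 (2.30, adjusted p = 3.04e-08) and HDAC1 (0.52, adjusted p = 0.00366) rose on ribosomal protein mRNAs too. NCSTN and KAT2B were 0.15 and 0.12 there and did not pass. ADAM17 (-0.76, adjusted p = 0.00106), POFUT1 (-1.02, adjusted p = 0.00239) and EOGT (-1.61, adjusted p = 8.72e-06) fell there. DLL4 was -0.63 there and did not pass (adjusted p = 0.282). On library totals EOGT also fell (-0.56, adjusted p = 4.14e-04), while POFUT1 (0.05, adjusted p = 0.769) and DLL4 (0.39, adjusted p = 0.451) did not pass. ADAM17 (adjusted p = 0.0319), NCSTN, KAT2B, HDAC1 and BHLHE40 still rose on library totals. The falls of APH1B, MAML2 and TLE4 in THZ1 24 h, and those of DLL4, BHLHE40 and MAML2 in THZ1 4 h, passed under all 5 scalings.

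Among the protein-coding genes whose pattern over the 15 libraries was most like that of HES1, by the mean absolute difference of log2(CPM + 1) after subtraction of the DMSO mean, were RHOB (0.54), KLF6 (0.55), TXNIP (0.63) and IER5 (0.64), out of 9138 genes compared. On that scale HES1 averaged 1.43 in THZ1 24 h, -1.95 in THZ1 4 h, 1.37 in YKL-5-124 24 h and -1.05 in YKL-5-124 4 h relative to DMSO. RHOB averaged 1.09, -2.31, 0.19 and -0.56 in the same groups. KLF6 averaged 1.07, -2.07, 0.11 and -0.94. These 4 were below DMSO in both 4 h groups and above it in THZ1 24 h, and in YKL-5-124 24 h their means, 0.02 to 0.52, were below that of HES1.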

How the data were processed

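The authors deposited raw counts for 15 libraries in 1 table with symbols, positions and gene lengths, without normalization. STAR 2.6.1d and featureCounts 1.5.0-p3 are listed per the submitters' processing notes, as are DESeq2 1.24.0 and GRCh38; strand setting and multiple matches are unknown. Groups and replicate numbers came from the labels. Every column matched a sample (0 unmatched), and 0 rows lacked a gene. Pairs of libraries within a group differed by more than counting noise (chi-square divided by its degrees of freedom, 3.99 to 74.6), so each counted as its own sample.

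Of 58676 genes, 30731 had a count. The edgeR filter filterByExpr (10 counts in a library, 15 in total) left 14461, holding 99.9% of counts. All 15 libraries entered 1 quasi-likelihood fit (edgeR 4.0.16, limma 3.58.1, R 4.3.3) with TMM scaling and group as the only factor. The fit was tested in 7 comparisons with adjustment over all genes tested. It was checked on simulated data in which few genes changed, in both directions. That check does not cover THZ1 24 h, where 76.2% of genes were called against DMSO. Levels per kilobase use the deposited lengths, 92.1% of which equal those of GENCODE release 29; those of JAG1, NOTCH1 and NOTCH2 differ. The length slope used genes averaging 5 CPM or more.

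Members and lists were chosen with earlier results of these data known. All members are described. From each pathway list and each comparison with DMSO, at most 2 called genes per direction with the largest change and a mean of 1 CPM or more were eligible to be named. The genes most like HES1 were taken from protein-coding genes averaging 5 CPM or more. Alternatives were 4 other scalings, no filter, DESeq2 1.42.0, the compared groups alone, a replicate block, the length slope as a covariate and each library left out. The slope centred within groups and the fit without each group's library farthest in slope were chosen after seeing the data. Promoter sequences are from RefSeq. A few genes that these rules select are not reported here.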

Additional observations from a re-analysis of the deposited data

Results flagged for a closer look

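For 3 members THZ1 was called against DMSO in opposite directions at 24 h and at 4 h, and the difference between the times was also called. The test of that difference is THZ1 24 h against THZ1 4 h, because both share the DMSO libraries. Passing it was a condition of the flag, and NOTCH2, NOTCH3 and JAG2 passed it too without opposite calls against DMSO. The difference was 5.60 on the log2 scale for HES1 (adjusted p = 7.26e-06), 3.34 for NRARP (adjusted p = 2.51e-08) and 3.01 for DLL1 (adjusted p = 2.01e-06), by edgeR's quasi-likelihood test. In each case, under TMM scaling, all 3 libraries of THZ1 24 h were above, and all 3 of THZ1 4 h below, the 3 DMSO libraries. As given above, the rises at 24 h did not pass on library totals and changed sign on ribosomal protein mRNAs. Single outlying libraries were not tested for in these groups of 3.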

How the results depend on the processing

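The calls that passed in all 17 alternatives were those of HES1 and NRARP in THZ1 4 h against DMSO, of DLL1, HES1 and NRARP in THZ1 24 h against THZ1 4 h, of HES4 in YKL-5-124 24 h against DMSO and in THZ1 24 h against YKL-5-124 24 h, and of NRARP in THZ1 4 h against YKL-5-124 4 h. Of 1116 tested member values under alternatives, 911 kept their direction and side of the threshold and 97 changed sign, 77 of them with neither value past the threshold. Counts are of members, values are log2 fold changes, and the cause was not tested. Depth limits NOTCH3 and HEY1, with 111 and 203 counts in all.

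On library totals, THZ1 24 h against DMSO had 0 members higher and 6 lower, with JAG1 -0.97; THZ1 4 h against DMSO had NOTCH2 -0.10, JAG1 -0.07 and HES4 -0.20; THZ1 24 h against THZ1 4 h had HEY1 -0.75; THZ1 24 h against YKL-5-124 24 h had 1 higher, HEY1 -0.83 and NRARP -0.32; and THZ1 4 h against YKL-5-124 4 h had JAG2 -0.20. On ribosomal protein mRNAs, THZ1 24 h against DMSO had 0 higher and 7 lower, with NOTCH3 -0.61, JAG1 -2.05, DLL1 -0.41, HES1 -0.53 and NRARP -0.87. THZ1 4 h against DMSO had 5 lower, with NOTCH2 -0.34, JAG1 -0.34 and HES4 -0.47. THZ1 24 h against THZ1 4 h had 5 lower and HEY1 -1.48. YKL-5-124 against DMSO had NOTCH3 0.08 at 24 h and HES4 -0.02 at 4 h. THZ1 against YKL-5-124 had 0 higher, NOTCH3 -0.69, DLL1 -0.16, HEY1 -2.30 and NRARP -1.82 at 24 h, and NOTCH2 -0.08 and JAG2 -0.39 at 4 h.

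With RLE factors THZ1 24 h against DMSO had 1 member lower and HES4 0.18, THZ1 24 h against THZ1 4 h had 1 lower, JAG1 0.20 and HES4 0.04, and THZ1 against YKL-5-124 had 3 lower at 24 h, and 1 lower, HES4 0.07 and HEY1 0.02 at 4 h. DESeq2 gave the same values, except that THZ1 against YKL-5-124 kept its counts within 1.5 times and YKL-5-124 24 h against DMSO had 1 lower. With upper-quartile factors THZ1 24 h against DMSO had 1 lower, HES4 0.25 and HEY1 0.02, THZ1 24 h against THZ1 4 h had 0 lower, NOTCH1 0.10, JAG1 0.34 and HES4 0.17, and THZ1 24 h against YKL-5-124 24 h had 3 lower. Without the filter THZ1 24 h against THZ1 4 h had 1 lower and HEY1 -0.01. With only the groups compared, HES4 was 0.03 in THZ1 24 h against DMSO, and THZ1 24 h against THZ1 4 h and THZ1 4 h against YKL-5-124 4 h had 1 lower each. NOTCH3 passed the filter of that fit in YKL-5-124 4 h against DMSO and not in the comparisons that use THZ1 libraries or in YKL-5-124 24 h against DMSO.

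With the length slope as a covariate, THZ1 24 h against DMSO had 5 higher, NOTCH1 2.38, NOTCH2 0.27 and HES1 -1.38. THZ1 24 h against THZ1 4 h had 1 lower, NOTCH1 3.20, NOTCH2 0.10, JAG1 1.10 and HEY1 -0.59. THZ1 24 h against YKL-5-124 24 h had 1 lower, NOTCH1 1.87, JAG1 0.09 and HEY1 -0.37. THZ1 4 h against DMSO had 5 lower, YKL-5-124 24 h against DMSO 1 lower, and THZ1 4 h against YKL-5-124 4 h 1 higher. With the slope centred within groups, THZ1 4 h against DMSO had 5 lower, YKL-5-124 24 h against DMSO 4 higher and 1 lower, and THZ1 4 h against YKL-5-124 4 h 1 higher and 4 lower.

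Without the library of each group farthest in slope, THZ1 24 h against DMSO had NOTCH1 0.01, and THZ1 4 h against DMSO had 1 higher, NOTCH1 0.29, NOTCH3 0.20 and HES4 -0.23. THZ1 24 h against THZ1 4 h had JAG1 0.01. YKL-5-124 against DMSO had 4 higher and 1 lower at 24 h, and 2 higher, NOTCH1 0.93, NOTCH2 0.12, HES4 -0.25 and NRARP 0.08 at 4 h. THZ1 4 h against YKL-5-124 4 h had 1 higher, 1 lower, JAG2 -0.01, HES4 0.02 and HEY1 0.18.

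Leaving out each library in turn, HES4 ranged from -0.25 to 0.02 in THZ1 24 h against DMSO, -0.14 to 0.16 in THZ1 4 h against DMSO, -0.32 to 0.02 in THZ1 24 h against THZ1 4 h, -0.15 to 0.19 in YKL-5-124 4 h against DMSO and -0.21 to 0.22 in THZ1 4 h against YKL-5-124 4 h. HEY1 ranged from -0.88 to 0.10 in THZ1 24 h against DMSO and -0.41 to 0.56 in THZ1 24 h against THZ1 4 h, and, for THZ1 against YKL-5-124, -0.08 to 0.90 at 24 h and -0.44 to 0.50 at 4 h. JAG1 ranged from -0.05 to 0.52 in THZ1 24 h against DMSO and -0.23 to 0.26 in THZ1 24 h against THZ1 4 h, and JAG2 from -0.07 to 0.28 in THZ1 4 h against YKL-5-124 4 h. NOTCH1 ranged from -0.67 to 0.19 in THZ1 24 h against THZ1 4 h and, for YKL-5-124 against DMSO, -0.08 to 1.60 at 24 h and -0.88 to 0.48 at 4 h. NOTCH2 ranged from -0.01 to 0.37 and NOTCH3 from -0.68 to 0.56 in THZ1 4 h against DMSO, NOTCH3 from -0.93 to 0.31 in YKL-5-124 24 h against DMSO and NRARP from -0.29 to 0.04 in YKL-5-124 4 h against DMSO. The members higher in YKL-5-124 24 h against DMSO were 1 to 2. The members lower were 1 to 2 in THZ1 24 h against DMSO, 1 to 1 in THZ1 24 h against THZ1 4 h, 3 to 5 in THZ1 24 h against YKL-5-124 24 h and 1 to 3 in THZ1 4 h against YKL-5-124 4 h.

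Deviations from the group means correlated at 0.39 to 0.73 between libraries numbered 1, -0.57 to 0.71 between those numbered 2 and -0.67 to 0.46 between those numbered 3, in 10 pairs each, and 7 of 15 libraries correlated best with one of their own number. Since some pairs were negative, the numbers were not taken to pair the libraries. The replicate block gave 4 members higher and 3 lower in THZ1 24 h against DMSO, where NOTCH1 (-1.27, adjusted p = 0.0215) and NOTCH3 (1.57, adjusted p = 0.0308) also passed. It moved no count of members by more than 1.5 times.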
